A study of Homo sapiens with 2 samples.

Results

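The genes described here are the receptors EGFR, ERBB2 and ERBB3 of the epidermal growth factor (EGF) receptor family, the ligands AREG, EREG, HBEGF, TGFA and BTC, and ERRFI1, a feedback inhibitor of these receptors. Members were all probe sets that the array's annotation assigns to exactly 1 of these 9 genes, which gave 29 of the 41091 non-control probe sets with a single gene and 8 of 19775 genes. AREG has no probe set in the annotation used here and was not analysed. Gene expression was measured on 2 oligonucleotide arrays, 1 for PC-3 cells transfected with a short hairpin RNA (shRNA) vector against SHISA2 (siSHISA2_PC-3) and 1 for PC-3 cells transfected with a control shRNA vector (siCONTROL_PC-3). PC-3 is a human prostate cancer cell line, established from a bone metastasis, that grows without androgen. The series describes SHISA2 as overexpressed in high-grade prostate cancer cells, and its design compares the expression patterns of both transfections. With 1 array per group there is no replicate error, no p-value was computed, and every difference compares these 2 arrays. The sources used here do not say how many clones or cultures each RNA came from.

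Receptors of this family are membrane tyrosine kinases that dimerise when an EGF-like ligand binds and then feed the RAS-ERK and PI3K cascades. ERBB2 binds no known ligand and ERBB3 has a weak kinase, so both signal mainly as partners in dimers. The ligands are made as membrane-anchored precursors that metalloproteases shed, and prostate cancer cells are known to make both EGFR and some of its ligands, an autocrine arrangement. ERRFI1 (also MIG6) binds the kinase domain of active receptors, blocks it and is itself induced by EGF signalling.

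SHISA2, the targeted gene, read 1506 in the siSHISA2 array and 3536 in the siCONTROL array on its only probe set, 42.6% of the control signal. The signals are MAS5 intensities in arbitrary units, with equal trimmed means in both arrays, and are compared only within a probe set. The medians were not equal, at 50.3 in the siSHISA2 array and 45.6 in the siCONTROL array. A probe set was called measured where the higher of its 2 signals exceeded the floor of 47.9, the pooled median signal of both arrays without control probe sets. This held for 20 of the 29 member probe sets and for 12931 genes. Signals under the floor were set to it, so a ratio with 1 such signal is a lower bound in size. The sign of such a ratio follows from which array passed the floor. The epithelial markers KRT8, KRT18 and EPCAM were measured (the keratins above 387.3 in both arrays), while KRT19 and CDH1 were under the floor. Of the leukocyte, endothelial, fibroblast and neuroendocrine markers, 1 of 4, 2 of 3, 2 of 4 and 1 of 3 were measured. Their summed signals were 57.3, 383.2, 630.3 and 60.7 in the siSHISA2 array, against 30.6, 260.5, 823.1 and 22.3 in the siCONTROL array. PTPRC, VWF and CHGA were under the floor in both arrays. The fibroblast marker COL1A1 was above 387.3 in both, at 577 in the siSHISA2 array and 787.2 in the siCONTROL array. The endothelial markers CDH5 and PECAM1 read 261.5 and 121.7 in the siSHISA2 array, and 155.9 and 104.6 in the siCONTROL array. Of 5 genes of the androgen axis, known to be low or absent in PC-3, 2 were measured, KLK3 with signals of 251 and 242.3 and KLK2 with signals of 71.3 and 20.6 in the siSHISA2 and siCONTROL arrays. The part of other cell types in the results was not tested.

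Within the family, HBEGF and most EGFR probe sets read higher after SHISA2 knockdown, BTC and ERRFI1 read lower, and EREG and TGFA were nearly level. In RNA of a whole culture, fewer expressing cells and less RNA per cell cannot be told apart. A gene's value is the log2 ratio, siSHISA2 over siCONTROL, of its brightest measured probe set (by mean log2 signal). None of the 8 genes differed by 2-fold, whereas among all measured genes 0.92% were higher and 0.565% were lower by that much. None reached 1.5-fold either, where the shares of all genes were 5.01% and 3.77%. The members had a median log2 ratio of -0.09 with 2 above and 6 below 0, and all measured genes had a median of 0.01 with 52.2% above and 47.8% below 0. Over the 20 measured member probe sets the median had the other sign, at 0.09 with 12 above and 8 below 0. These counts include probe sets that passed the floor in 1 array only, which fixed their sign. They are 1563253_s_at and 215638_at of ERBB3 (above 0) and 211258_s_at of TGFA (below 0). EREG turned above 0 after quantile normalization and after removal of a loess trend, and TGFA turned after quantile normalization, so that 4 of 8 members were above 0 with quantile normalization and 3 of 8 with loess. As a technical yardstick, log2 ratios of 2 probe sets of the same gene differed with an SD of 0.286 (after division by the square root of 2, over 6428 genes), or 0.1545 where the floor was raised to 387.3, the 75th percentile. This yardstick holds no variation between cultures or arrays.

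**Figure D1:**
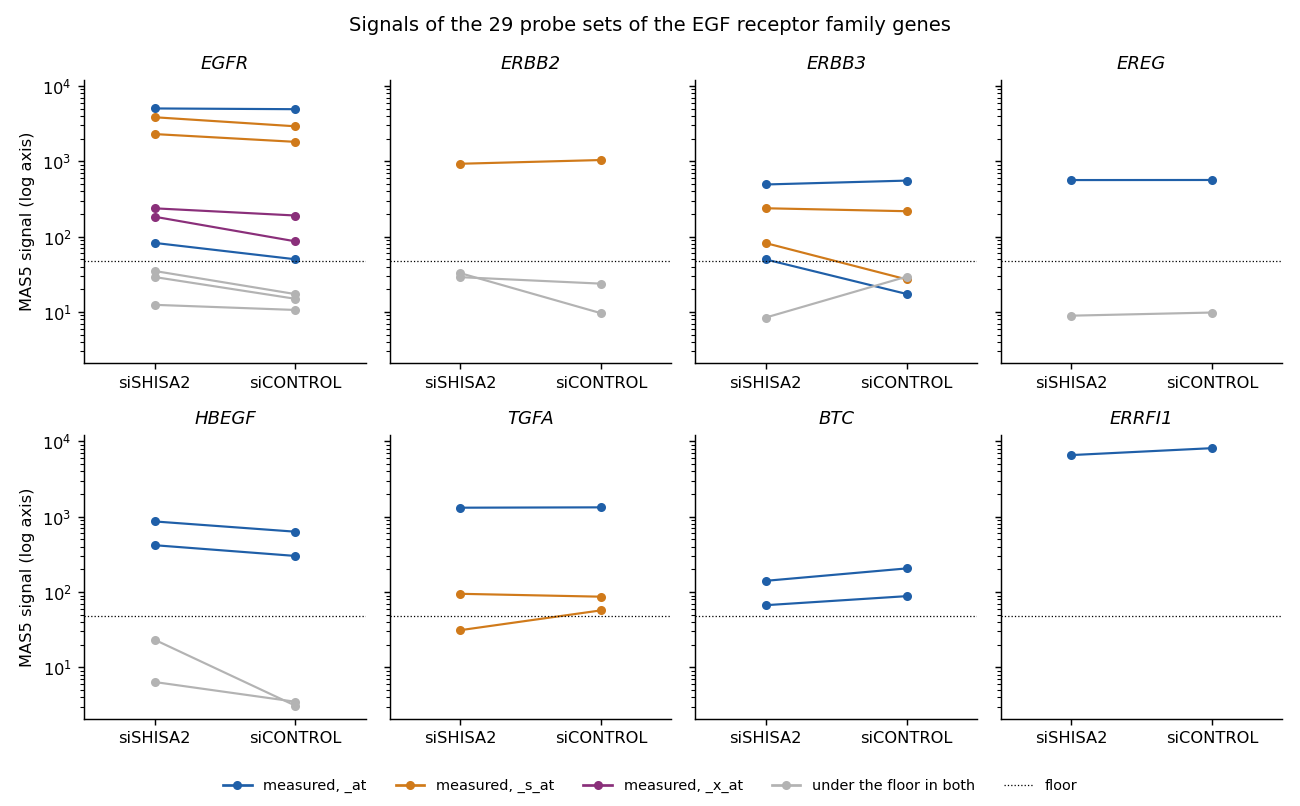
MAS5 signal (log axis) of the 29 member probe sets in the siSHISA2 (left) and siCONTROL (right) arrays, 1 panel per gene; colours give the probe set kind, grey lines are under the floor (dotted, 47.9) in both arrays. Both HBEGF lines are higher on the left, both BTC lines and the ERRFI1 line are lower on the left, and the bright EREG and TGFA lines are flat.

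EGFR, the receptor that all the ligands among the members bind, was read by 9 probe sets, of which 6 were measured. The brightest, 224999_at, had a signal of 5018 in siSHISA2 cells and 4904.5 in siCONTROL cells (log2 ratio 0.03). The next, 201983_s_at, read 3835 in siSHISA2 cells and 2908 in siCONTROL cells (0.40). The probe set 201984_s_at read 2293 in siSHISA2 cells and 1807 in siCONTROL cells (0.34). The brightest probe set was thus level between the arrays, while both others above 387.3 were higher in the knockdown array by more than the yardstick of 0.286. On 210984_x_at the signals were 236.9 in siSHISA2 cells and 190.2 in siCONTROL cells (0.32). On 211607_x_at they were 183.2 in siSHISA2 cells and 86.3 in siCONTROL cells (1.09), the single member probe set past 2-fold, against 1.08% of all measured single-gene probe sets at least 2-fold higher. On 211551_at they were 82.3 in siSHISA2 cells and 49.9 in siCONTROL cells (0.72), the control signal lying just above the floor. The 2 largest ratios thus stood on the 2 dimmest of the measured probe sets. The array medians, 50.3 for siSHISA2 cells and 45.6 for siCONTROL cells, differed in the same direction. With the loess trend removed, the largest EGFR ratio was 1.01. All 6 measured probe sets of EGFR were above 0, as deposited and under the 3 other scalings, with a median of 0.37. Of the 205 genes with 6 or more measured probe sets, 5.37% had all of them above 0. The share for genes with exactly 6, like EGFR, was not computed. The gene's value depended on which probe set stood for it, at 0.03 for the brightest and 0.48 for the mean of all 6. Probe sets of the _s_at and _x_at kinds can read several transcripts or share probes with other genes, and 4 of the 6 were of these kinds. The 3 probe sets not measured had signals of 10.6 to 34.9.

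ERBB2, the receptor known as HER2, had 1 measured probe set of 3. It read 925.2 in siSHISA2 cells and 1037 in siCONTROL cells, a log2 ratio of -0.16 and 10.8% less signal. That is 0.575 times the yardstick over all genes and 1.06 times that of bright ones. Of all measured genes 24.4% had a lower ratio, and of the genes with both signals above 387.3, 20.2% did. The other 2 probe sets were at 9.6 to 32.7, under the floor in both arrays.

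ERBB3, which binds neuregulins and recruits PI3K, had 4 measured probe sets of 5, and they disagreed in direction. The brightest, 226213_at, read 491.1 in siSHISA2 cells and 552.8 in siCONTROL cells (log2 ratio -0.17). The second, 202454_s_at, read 237.4 in siSHISA2 cells and 216.9 in siCONTROL cells (0.13). The differences are opposite in sign and under the yardstick over all genes, the first being 1.11 times that of bright ones. The dim 1563253_s_at read 81.9 in siSHISA2 cells and 27 in siCONTROL cells, at least 1.71-fold higher. The last, 215638_at, was barely above the floor in siSHISA2 cells at 49.7 and under it in siCONTROL cells at 17.3. Averaged over its 4 probe sets ERBB3 stood at 0.20, on the other side of 0 from its brightest probe set. That average includes 1563253_s_at and 215638_at, which passed the floor only in siSHISA2 cells and so could only be above 0.

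**Figure D2:**
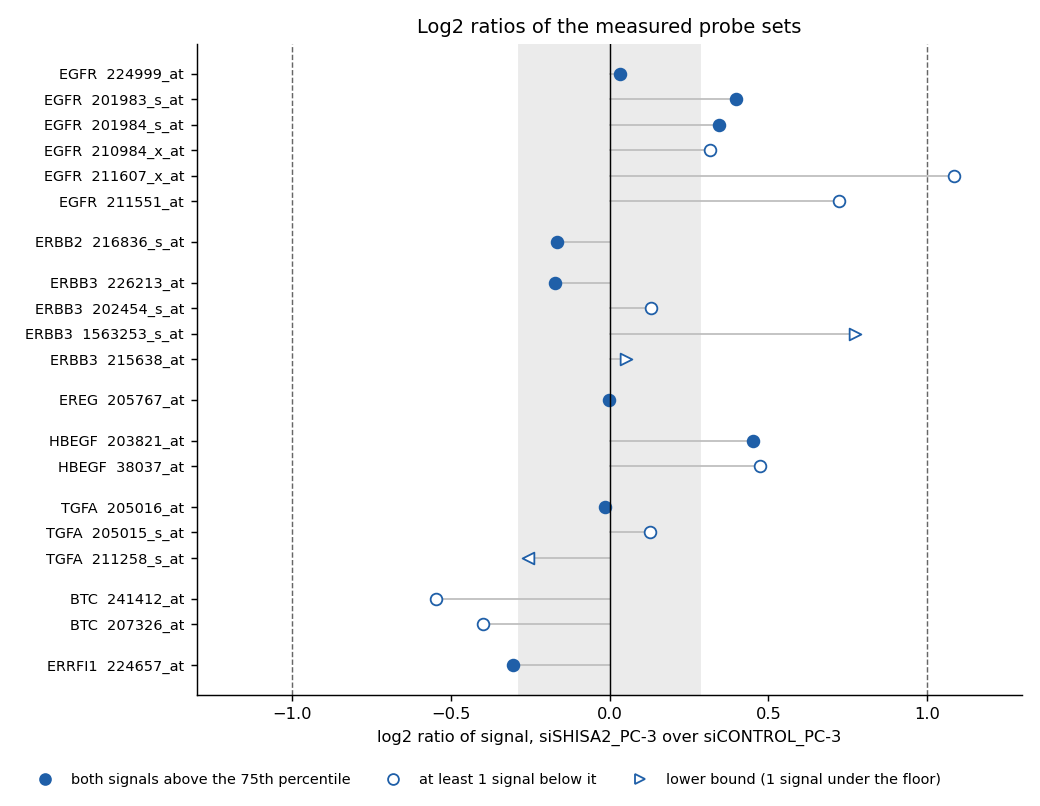
Log2 ratio of signal, siSHISA2_PC-3 over siCONTROL_PC-3, for the 20 measured member probe sets, brightest first within a gene. Filled points have both signals above 387.3, open points do not, triangles are lower bounds, the grey band is the yardstick of 0.286 either side of 0, and dashed lines mark 2-fold; 211607_x_at of EGFR, at 1.09, is the 1 point past them.

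The start regions of 3 ligand genes are shown because HBEGF had the highest log2 ratio of the members, EREG the one nearest to 0 and BTC the lowest. They are RefSeq promoter windows of assembly GRCh38.p14, from 250 bases before to 50 bases after the annotated start, written 5′ to 3′ along the gene. Capitals mark matches on either strand to the GC box GGGCGG, the AP-1 site TGANTCA, the cyclic AMP response element TGACGTCA, the CCAAT box CCAAT and the TATA box TATAAA. The HBEGF window is chr5:140346554-140346853 on the minus strand, the EREG window chr4:74364895-74365194 on the plus strand and the BTC window chr4:74794474-74794773 on the minus strand.
HBEGF: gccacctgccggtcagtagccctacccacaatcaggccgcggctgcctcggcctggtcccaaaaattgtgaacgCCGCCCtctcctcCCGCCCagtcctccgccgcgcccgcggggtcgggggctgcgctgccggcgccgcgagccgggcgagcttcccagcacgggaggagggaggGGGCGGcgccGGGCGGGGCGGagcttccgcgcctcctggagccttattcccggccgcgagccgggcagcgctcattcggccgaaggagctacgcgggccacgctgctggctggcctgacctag
EREG: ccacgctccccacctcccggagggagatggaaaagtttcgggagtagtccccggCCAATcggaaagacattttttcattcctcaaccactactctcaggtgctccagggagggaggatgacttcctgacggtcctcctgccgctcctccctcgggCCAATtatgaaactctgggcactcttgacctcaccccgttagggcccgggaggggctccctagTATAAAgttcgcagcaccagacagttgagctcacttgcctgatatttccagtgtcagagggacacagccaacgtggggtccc
BTC: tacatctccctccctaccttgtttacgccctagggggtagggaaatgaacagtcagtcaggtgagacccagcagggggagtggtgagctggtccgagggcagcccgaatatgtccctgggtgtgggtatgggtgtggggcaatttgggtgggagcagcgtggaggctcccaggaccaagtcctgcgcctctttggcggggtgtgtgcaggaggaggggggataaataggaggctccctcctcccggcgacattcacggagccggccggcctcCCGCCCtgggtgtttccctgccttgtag

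HBEGF, the ligand that read higher, has 5 GC box matches, of which the last 2 overlap by 1 base, and is 75% G and C. EREG, the level one, has 2 CCAAT matches and a TATA match at position -32 from the start, and is 57.7% G and C. BTC, the lower one, has 1 GC box match at position 22 after the start and is 63% G and C. None of the 3 windows holds the AP-1 or cyclic AMP motif in these letters. Over the 35116 windows in the table, 45% hold the GC box, 34.6% the CCAAT box, 11.5% the TATA box, 7.71% the AP-1 site and 1.85% the cyclic AMP element. GC-rich windows with GC box matches were not particular to HBEGF. The first TGFA window has 4 matches and is 75.3% G and C, with a gene log2 ratio of -0.02. The first EGFR window has 3 matches and 75.3% (0.03), and the ERRFI1 window 1 match and 74.7% (-0.31). A link between these windows and the ratios was not tested. The matches describe letters and say nothing of a factor's binding.

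Of the ligands, HBEGF, the heparin-binding ligand of EGFR and ERBB4, was the member with the highest ratio. Its probe set 203821_at read 866.8 in siSHISA2 cells and 633.3 in siCONTROL cells, 1.37-fold higher (log2 ratio 0.45). Its second measured probe set, 38037_at, read 419.2 in siSHISA2 cells and 301.9 in siCONTROL cells, 1.39-fold higher (0.47). HBEGF was thus higher in siSHISA2 cells on both probe sets. They gave nearly the same ratio, each above the yardstick, and whether they share probes was not checked. Of the 7650 genes with both signals above 387.3, 135 had a higher ratio than HBEGF, which is 1.76% of them. Of all measured genes, dim ones included, 8.27% did. Of the 3410 genes with exactly 2 measured probe sets, 30.9% had both above 0. The other 2 HBEGF probe sets stayed under the floor, at 3.1 to 23.3.

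BTC, betacellulin, also a ligand of EGFR and ERBB4, was the member with the lowest ratio. Its probe set 241412_at read 141.1 in siSHISA2 cells and 206.1 in siCONTROL cells, 1.46-fold lower (log2 ratio -0.55). Its other probe set, 207326_at, read 67 in siSHISA2 cells and 88.3 in siCONTROL cells, 1.32-fold lower (-0.40). Both were lower in the knockdown array and both were dim, under 387.3 in both arrays, where ratios scatter more. Of all measured genes 4.42% had a lower ratio, and 28% of genes with exactly 2 measured probe sets had both below 0. With the floor raised to 387.3, BTC was no longer measured.

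EREG, epiregulin, was at the same signal in both arrays. Its probe set 205767_at read 562.1 in siSHISA2 cells and 563.4 in siCONTROL cells (log2 ratio -0.0033), and the sign of a value this close to 0 turned with the scaling. Its second probe set was under the floor, at 8.9 in siSHISA2 cells and 9.8 in siCONTROL cells. In the RefSeq gene table EREG, AREG and BTC follow each other on chromosome 4 with 0 protein-coding genes between neighbours, so a level ligand and the lowest one lie in the same cluster.

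TGFA, the ligand long known as transforming growth factor alpha, read 1319 in siSHISA2 cells and 1334 in siCONTROL cells on its bright probe set 205016_at (log2 ratio -0.02). The dim 205015_s_at read 94.9 in siSHISA2 cells and 86.9 in siCONTROL cells (0.13). On 211258_s_at the signal was 31.2 in siSHISA2 cells, under the floor, and 57.2 in siCONTROL cells, at least 1.19-fold lower. The first 2 differences are smaller than the yardstick, and the third is only a bound.

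ERRFI1 was lower after SHISA2 knockdown. The 1 probe set for it, 224657_at, read 6589 in siSHISA2 cells and 8142 in siCONTROL cells, 1.24-fold lower (log2 ratio -0.31) and 19.1% less signal. This is 1.07 times the yardstick over all genes and 1.98 times that of bright ones. Of the 7650 genes with both signals above 387.3, 586 had a lower ratio, or 7.66%. With 1 probe set there is no second reading of the gene.

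**Figure D3:**
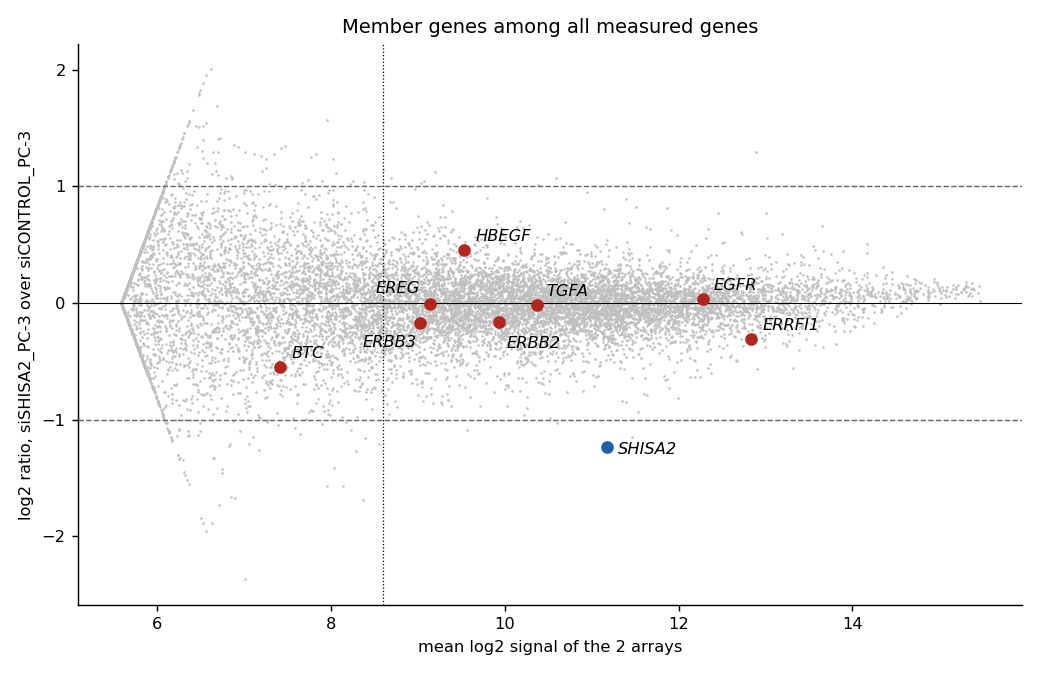
Log2 ratio, siSHISA2_PC-3 over siCONTROL_PC-3, against the mean log2 signal of both arrays for the 12931 measured genes (grey), with the 8 members in red and SHISA2 in blue; dashed lines mark 2-fold and the dotted line the signal of 387.3. HBEGF at 0.45 lies near the upper edge of the cloud at its brightness and ERRFI1 at -0.31 below the bulk of it, while EREG, TGFA and EGFR lie near its centre.

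The rest of the pathway was followed in 5 lists. Of the other receptors and ligands of the family, 3 of 7 genes were measured, all below 0 and none by 2-fold, with a median of -0.23, which was -0.05 without _x_at and _s_at probe sets and -0.13 with the floor at 11.3. ERBB4, the receptor for neuregulins and for HBEGF and BTC, read 103.5 in siSHISA2 cells and 125.7 in siCONTROL cells (log2 ratio -0.28). NRG2, a neuregulin, read 292.7 in siSHISA2 cells and 342.5 in siCONTROL cells (-0.23). NRG1, the neuregulin that binds ERBB3 and ERBB4, read 336.1 in siSHISA2 cells and 344.5 in siCONTROL cells (-0.04), with probe sets from -0.63 to 0.20. EGF itself was under the floor, at no more than 43.1.

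Ligand shedding and processing genes were split, with 4 of 8 measured genes above and 4 below 0, none of them 2-fold apart, and a median of -0.05. That median was -0.21 over 4 genes with the floor at 387.3, -0.13 without _x_at and _s_at probe sets, and 0.03 with the floor at 11.3. Both ADAM10 and ADAM9 were lower on each of their 3 measured probe sets. How many of all genes with 3 measured probe sets had all below 0 was not computed. Among genes with exactly 2, the share with both below 0 was 28%. ADAM10, which cleaves EGF and betacellulin precursors, read 5216 in siSHISA2 cells and 6352 in siCONTROL cells (log2 ratio -0.28, probe sets from -0.55 to -0.28). ADAM9, another membrane metalloprotease, read 11366 in siSHISA2 cells and 14716 in siCONTROL cells (-0.37, probe sets from -0.37 to -0.25). RHBDF2, the rhomboid-like protein that carries ADAM17 to the cell surface, went the other way, at 282.7 in siSHISA2 cells and 188.7 in siCONTROL cells (0.58). RHBDF2 has 1 probe set, and both of its signals lay under 387.3, where ratios scatter more. TIMP3, an inhibitor of ADAM17, was at least 1.40-fold higher, at 66.9 in siSHISA2 cells and under the floor at 39.3 in siCONTROL cells. Passing the floor in 1 array only fixed the sign of TIMP3 in the counts above. The same held for RHBDL2, below 0 and named for this reason, at 31.5 in siSHISA2 cells and 54 in siCONTROL cells. ADAM17, the main sheddase of HBEGF and TGFA precursors, read 2971 in siSHISA2 cells and 3252 in siCONTROL cells (-0.13, probe sets from -0.13 to 0.09), and is named here after its value was seen.

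Receptor adaptors and kinases of the cascade were nearly level on their brightest probe sets, and 17 of the 23 listed genes were analysed. The median log2 ratio was -0.05, with 5 above 0 and 12 below (4 and 13 under each other scaling). No gene reached 1.5-fold on its brightest probe set, but other probe sets disagreed for some genes. The adaptor GRB2, named after its values were seen, had -0.03 with probe sets from -0.95 to 0.06. The lowest were AKT1, the kinase downstream of PI3K, at 434.2 in siSHISA2 cells and 551.9 in siCONTROL cells (-0.35), and the docking protein GAB1, at 240 in siSHISA2 cells and 304.5 in siCONTROL cells (-0.34, probe sets from -0.44 to 0.18). The RAS activator SOS1 had a log2 ratio of -0.23, with probe sets from -0.23 to 0.36. The phospholipase PLCG1 had -0.13, and 0.62 on its other probe set.

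Genes that restrain or degrade the receptors were evenly divided, 8 above and 8 below 0 (7 and 9 after median centring), with a median of -0.01, and 1 gene was past 2-fold. LRIG1, a membrane protein that promotes degradation of ERBB receptors, was the 1 gene of the 5 lists past 2-fold. For comparison, 0.565% of the 12931 genes with a value reached 2-fold on the lower side and 0.92% on the higher side. Whether 1 such gene is more than lists of this size would hold anyway was not tested. LRIG1 read 65.2 in siSHISA2 cells and 175 in siCONTROL cells, a log2 ratio of -1.42, on 1 measured probe set of 4 and at dim signals. Its relative LRIG3 read 618.6 in siSHISA2 cells and 801.9 in siCONTROL cells (-0.37). RNF41, the ubiquitin ligase of ERBB3, read 372.4 in siSHISA2 cells and 283.6 in siCONTROL cells (0.39, with probe sets from -0.14 to 0.39). CBLC, of the same family as CBL, was at least 1.25-fold higher, at 60 in siSHISA2 cells and under the floor at 14.8 in siCONTROL cells. Passing the floor in 1 array only fixed the sign of CBLC, which is among the 8 genes above 0. CBL, the main ubiquitin ligase of EGFR, named after its value was seen, had a log2 ratio of 0.10, with probe sets from -0.34 to 0.39.

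Of 26 genes known to be induced by EGF and ERK, 18 were above 0 and 8 below, with a median of 0.16 against 0.01 over all measured genes. The share above 0 over all measured genes was 52.2%. Without _x_at and _s_at probe sets the median was 0.08 over 20 genes. After median centring 17 of 26 were above 0, beside 6254 of all 12931 measured genes. After quantile normalization 16 of 26 were, beside 6479 of 12907 genes, and the list median was 0.12. After loess 16 of 26 were, beside 6494 of 12931 genes, and the list median was 0.11. JUNB, an AP-1 subunit, read 898.3 in siSHISA2 cells and 672.3 in siCONTROL cells (log2 ratio 0.42). PLAUR, the urokinase receptor, read 6110 in siSHISA2 cells and 4598 in siCONTROL cells (0.41, probe sets from 0.29 to 0.66). FOSL1, another AP-1 subunit, read 3394 in siSHISA2 cells and 2624 in siCONTROL cells (0.37). The transcription factor ETV4 was the lowest of the list, at 95.4 in siSHISA2 cells and 172.5 in siCONTROL cells (-0.85, and -0.40 on its other probe set). The ERK phosphatase DUSP6 (-0.30) and the feedback inhibitor SPRY4 (-0.33) were also below 0, like ERRFI1, whereas SPRY2 (0.22) and DUSP5 (0.20) were above it. These 4 were named after their values were seen. EMP1, among the genes below 0, passed the floor in siCONTROL cells only, which fixed its sign. It read 38.1 in siSHISA2 cells and 50.4 in siCONTROL cells, and is named for this reason. No gene of the list reached 2-fold, and 1, ETV4, was past 1.5-fold, on the lower side. Of all measured genes 3.77% were at least 1.5-fold lower.

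**Figure D4:**
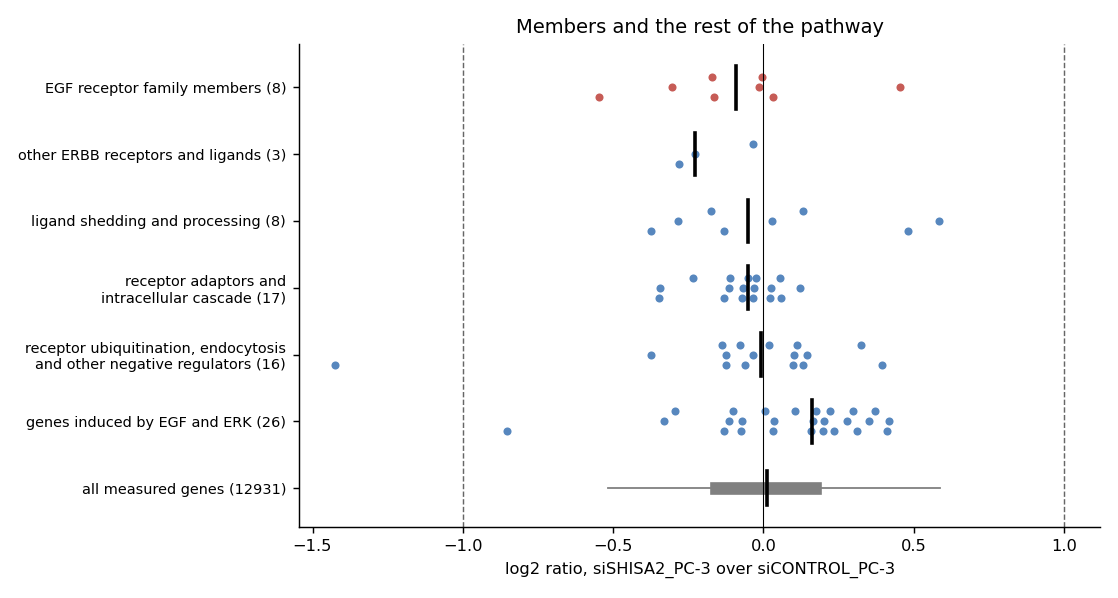
Log2 ratio, siSHISA2_PC-3 over siCONTROL_PC-3, of each measured member (red) and of each gene in the 5 pathway lists (blue), with the number of measured genes in brackets and black ticks for medians. The grey bar for all measured genes spans the 25th to 75th percentile (-0.16 to 0.17) and its line the 5th to 95th (-0.52 to 0.59); dashed lines mark 2-fold, and LRIG1, at -1.42, is the 1 point past them.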

How the data were processed

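Total RNA of PC-3 cells was labelled with biotin by a 3' in vitro transcription kit and hybridised to 2 arrays, per the labels' protocols. The deposited values are linear probe-set intensities, and the submitters' processing notes name MAS5, with no version, as the authors' tool. Both arrays had a trimmed mean (2% at each end) of 500.07, so no further scaling was applied. Their medians differed, at 50.3 in the siSHISA2 array and 45.6 in the siCONTROL array, and this was left in the main values. Signals near background are noisy in MAS5. The arrays hold 54675 probe sets. After 62 controls were left out, 41091 of the remaining 54613 had 1 gene in the annotation, 1801 had several and 11721 had none. Of the single-gene probe sets, 41037 matched RefSeq GRCh38.p14 by gene identifier. Groups came from the sample titles.

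Signals under the pooled median (47.9) were raised to it, and log2 ratios were formed with Python 3.11.15 and pandas 2.3.3, without a test. Genes named are all members, SHISA2 and the 4 largest ratios of each list, others being marked. Members and lists were chosen with earlier results of these data known. Alternatives were 3 scalings (loess span 0.3), floors at 11.3 and 387.3, a pseudocount of 1, other probe set rules and thresholds of 1.5-fold and 3-fold. The procedure was tested on simulated data, with differences well past 2-fold planted in bright genes only. That test does not cover differences of the size reported here for the members. Promoter sequences come from RefSeq.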

Additional observations from a re-analysis of the deposited data

How the results depend on the processing

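Over 18 results and 144 alternative values, 142 moved by less than the technical yardstick of 0.286 or kept their count, and 2 moved by more. Part of this was fixed in advance. Another floor leaves the ratio of a probe set above it unchanged, and 0 members past 2-fold means 0 past 3-fold. A change of sign by less than the yardstick was counted as no move, and most values were smaller than the yardstick. Those that moved were the means over probe sets for EGFR (0.48, against 0.03 on the brightest probe set) and for ERBB3 (0.20, against -0.17), whose dimmer probe sets had higher ratios. For ERBB3 the mean includes 1563253_s_at and 215638_at, which passed the floor only in the siSHISA2 array and could only be above 0. The number of members at least 2-fold higher or lower was 0 under all 10 alternatives, including the thresholds of 1.5-fold and 3-fold. The log2 ratio of HBEGF ranged from 0.43 to 0.46, that of BTC from -0.59 to -0.47 in the 7 alternatives that measured it, and that of ERRFI1 from -0.34 to -0.31. EREG and TGFA lay on both sides of 0, from -0.03 to 0.005 and from -0.05 to 0.01. The median over member genes ranged from -0.11 to -0.02, and that over member probe sets from -0.0033 (without _x_at and _s_at probe sets) to 0.29 (floor at 11.3). List medians ranged from -0.25 to -0.05 for the other receptors and ligands, -0.21 to 0.03 for shedding, -0.07 to -0.05 for the cascade, -0.06 to 0.02 for negative regulators and 0.08 to 0.19 for induced genes. The first list had no measured gene with the floor at 387.3. Over all genes at least 2-fold apart, the higher side held 62% as deposited, 51.8% with quantile normalization and 48.5% with loess. Lowering the floor to 11.3 gave 1400 higher and 974 lower genes against 119 and 73, raising it to 387.3 gave 5 and 4, and without a floor there were 529 and 302. At thresholds of 1.5-fold there were 648 and 487, and of 3-fold 8 and 9. No paired analysis was possible because each group has 1 array. Signal over background limits BTC, LRIG1 and the dim EGFR and ERBB3 probe sets.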
